A study of Mus musculus with 15 samples.

Results

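GATA factors are zinc finger transcription factors, and they act with a small set of partner proteins that decide which genes they turn on or off. The 9 genes described here were taken by name: the GATA factors Gata1, Gata2 and Gata3, the cofactor gene Zfpm1, the repressor genes Gfi1 and Gfi1b, and Tal1, Lmo2 and Ldb1, which encode parts of one complex. All 9 were found among the 25101 genes of the count table. In blood formation GATA1 drives erythroid cells, megakaryocytes, mast cells and eosinophils, and loss of a GATA site in its own regulatory DNA removes eosinophils in mice. GATA2 serves stem and progenitor cells, mast cells and basophils among other cells, and GATA3 serves T cells and group 2 innate lymphoid cells.

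The RNA came from eosinophils cultured from unselected bone marrow of BALB/c mice for 14 days, in 2 libraries out of 15 samples of the series. Stem cell factor and FLT3 ligand, which expand progenitors, were given at 100 ng/mL each on days 0 to 3. Interleukin 5, the growth factor of eosinophils, was given at 10 ng/mL on days 4 to 14. The protocols name no sort of cells at harvest, and the labels do not say whether the libraries came from separate cultures or animals. There was 1 group and thus no comparison between conditions. The libraries of other myeloid cells were not used here, so whether any of the 9 genes is restricted to eosinophils was not analysed.

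The libraries held 40306679 and 30465490 counts. Levels are given as CPM, the count of a gene over the library total scaled to 1000000, and a gene was called detected when each library reached 1 CPM. The 10 eosinophil genes of a fixed list were all detected, with Prg2, the major basic protein of the granule, at 3910 and 4195 CPM and Epx, eosinophil peroxidase, at 2883 and 2649 CPM. Markers of other cells were present too: 13 of 13 neutrophil genes and 9 of 11 macrophage genes were detected, where 47.5% of all genes were. In replicates 1 and 2 the macrophage list summed to 6785 and 8278 CPM and the neutrophil list to 1881 and 1629 CPM. The eosinophil list summed to 13349 and 13606 CPM. Levels given here are thus those of the whole culture. Of the 9 detected macrophage genes 7 were higher in replicate 2 and 2 in replicate 1. The share of all detected genes higher in either replicate was not counted, so such splits have no background beside them. Stromal genes summed to 2522 CPM in replicate 1 and 684 CPM in replicate 2, with 9 of 13 detected and all 9 higher in replicate 1. Xist, an RNA made from the inactive X chromosome of female cells, had 990 CPM in replicate 1 and 0.656 CPM in replicate 2. Replicate 1 thus held RNA of female cells that replicate 2 all but lacked, so the libraries were not drawn from the same culture or animal. In such bulk RNA, fewer cells of a type and less RNA per cell cannot be told apart.

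Of the 9 genes, 8 were detected in both libraries, where 47.5% of all genes were. Gata3 was the gene that was not. The median log2(CPM + 1) of the 9 genes was 6.28, compared with 0.82 over all genes and 4.98 over detected genes. These medians take no account of transcript length, and the 9 include Gata3, which was not detected. Of the 8 detected genes, 0 differed by more than 1.5-fold between the libraries, where 7.24% of all detected genes did, a share too low for 0 of 8 to set these genes apart. Of the 8 genes, 4 were higher in replicate 1 and 4 in replicate 2, a split that was 3 and 5 when library totals were scaled by TMM and 2 and 6 by DESeq2 size factors. The median log2 ratio of replicate 1 over replicate 2 was -0.0055 over the 8 genes and 0.06 over all detected genes. Each ratio compares 1 library with 1 other, so its 95% interval (exact binomial) covers counting error only.

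**Figure D1:**
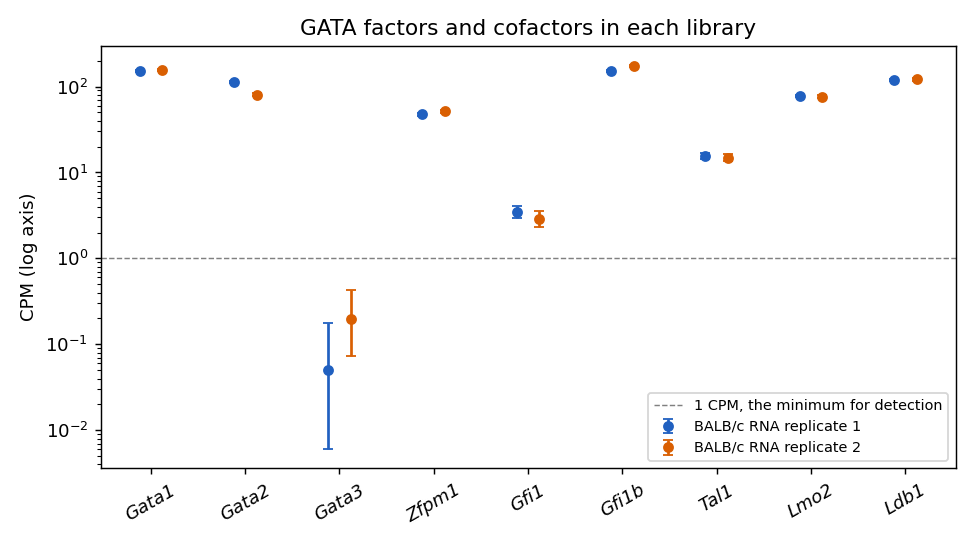
CPM of the 9 genes on a log axis in replicate 1 (blue) and replicate 2 (orange), with exact 95% Poisson intervals for counting error and the 1 CPM minimum as a dashed line. Gata3 lies below the minimum in both libraries, Gfi1 between 2.89 and 3.47 CPM, and the other genes at 14.9 CPM or more, with the widest gap between the libraries among detected genes at Gata2.

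Gata1, a GATA factor tied to eosinophil fate, had 6054 counts in replicate 1 and 4753 in replicate 2. These equal 150.2 and 156 CPM, or 153 ± 4.11 CPM (mean ± SD, n = 2, as for all means that follow). The libraries were 1.04-fold apart, with an interval of 0.9998 to 1.08 for replicate 2 over replicate 1. Gata1 lies on the X chromosome, and its level was thus close in libraries that differed in Xist by 989 CPM. Its neighbours on that chromosome in the RefSeq gene table were Hdac6, a cytoplasmic deacetylase, at 30.2 and 27.9 CPM, and Glod5 at 1.24 and 1.77 CPM.

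The 250 bases before the RefSeq start of Gata1 (GRCm38.p6, chrX:7967911-7968160, minus strand) are shown because GATA1 is known to act on its own gene, and the window can be searched for the letters that GATA factors bind. Capitals mark the core GAGGAA that PU.1 and other ETS factors bind.
Gata1: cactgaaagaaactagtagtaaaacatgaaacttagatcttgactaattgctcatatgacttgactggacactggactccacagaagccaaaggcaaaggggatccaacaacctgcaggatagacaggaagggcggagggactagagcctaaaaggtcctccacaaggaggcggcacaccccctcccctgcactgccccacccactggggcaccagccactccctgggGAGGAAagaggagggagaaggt
The GATA letters searched were AGATAA and TGATAA as well as AGATAG and TGATAG on both strands, and this window held 0 matches to them. Bases outside the window were not searched, so the 0 matches say nothing of GATA sites elsewhere at the gene. The window held 1 match to GAGGAA, which lies 22 to 17 bases before the start. Over all 32851 promoter windows of this length in the RefSeq table, 26.5% held a GATA match and 23.3% held GAGGAA. RefSeq windows were found for 8 of the 9 genes, 13 windows in all, and Lmo2 had none. A GATA match was present in 3 of the 13 windows, of the genes Gfi1b, Tal1 and Ldb1. The E-box letters CAGCTG and CAGATG, which TAL1 and its E protein partners can bind, were present in 0 of the 13 windows and in 25.5% of all windows. A match is a description of letters, and binding at these windows was not analysed here.

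Gata2 had 4599 counts in replicate 1 and 2433 in replicate 2. Its levels were 114 and 79.9 CPM, or 97.0 ± 24.2 CPM. Replicate 1 was 1.43-fold higher, with an interval of 1.36 to 1.501, and 7.84% of all detected genes (935 genes) were at least as far towards replicate 1. Gata2 showed the largest ratio of the 8 detected genes, and it stayed below the 1.5-fold mark.

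Some genes of mast cells and basophils also stood higher in replicate 1. Of 15 such genes 7 were detected (46.7%), near the 47.5% of all genes. Of the 7, 5 were higher in replicate 1, 3 of them by more than 1.5-fold, where 6.75% of all detected genes were. Hdc, which makes histamine, stood at 149 and 104 CPM, 1.43-fold higher in replicate 1. Prss34, a basophil protease, stood at 37.0 and 17.6 CPM, Cpa3, a mast cell carboxypeptidase, at 28.2 and 12.9 CPM, and Ms4a2, the beta chain of the IgE receptor, at 24.4 and 13.4 CPM. Kit, the receptor of stem cell factor, was 1.21-fold higher in replicate 1 (24.3 and 20.0 CPM). Il4 at 44.2 and 45.9 CPM and Mitf, a mast cell transcription factor, at 28.4 and 31.2 CPM were not higher there. The list summed to 339 and 247 CPM, 1.37-fold higher in replicate 1. The mast cell proteases Mcpt1, Mcpt2 and Mcpt4 had 0 counts in both libraries, where 3 counts equal 0.0744 and 0.0985 CPM. Also not detected were Mcpt8 at 1.86 and 0.788 CPM, Fcer1a at 0.595 and 0.525 CPM, and Tpsb2, Tpsab1 and Cma1.

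Of 12 stem and progenitor genes 8 were detected, where 47.5% of all genes were. Of the 8, 6 were higher in replicate 1 (5 with TMM or DESeq2 scaling). The median log2 ratio over all detected genes, 0.06, also lay towards replicate 1, and the share of them higher there was not counted. Kit is on both lists, and without it 5 of 7 were higher there. Myb, a progenitor factor, stood at 56.6 and 40.4 CPM and Meis1 at 6.90 and 4.83 CPM. Ly6a, a surface marker of stem cells, stood at 14.2 and 7.29 CPM. Higher in replicate 2 were Cd34, close at 22.5 and 23.8 CPM, and Flt3 at 2.58 and 3.45 CPM. The list summed to 135 and 106 CPM (1.28-fold, and 1.30-fold without Kit). Stromal genes were 3.69-fold apart by their sum. The part of basophils, mast cells, progenitors or stromal cells in the Gata2 difference was not tested. The neighbour Rpn1, a subunit of the oligosaccharyltransferase, stood at 196 and 181 CPM, and the neighbour Dnajb8 had 0 counts in both libraries.

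**Figure D2:**
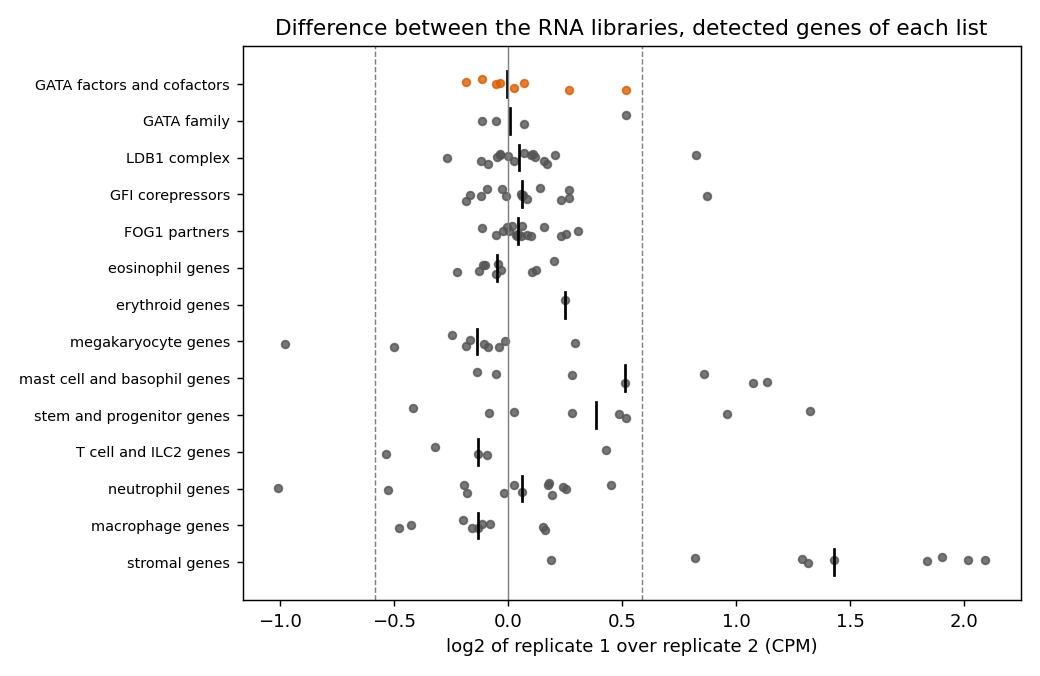
Log2 of replicate 1 over replicate 2 (CPM) for the detected genes of the GATA factors and cofactors (orange) and of each gene list (grey), with the median as a black bar and 1.5-fold as dashed lines. The 8 detected GATA factor and cofactor genes lie inside the dashed lines with Gata2 farthest to the right at 0.51, and the stromal genes lie farthest to the right with a median of 1.43.

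Gata3, the GATA factor of T cells and innate lymphoid cells, had 2 counts in replicate 1 and 6 in replicate 2. These equal 0.0496 CPM (interval 0.0060 to 0.179) and 0.197 CPM (0.0723 to 0.429). Both libraries lay below the 1 CPM minimum. Among 13 T cell and innate lymphoid genes matched, 5 were detected, where 47.5% of all genes were. The genes of the T cell receptor complex on the list differed: Cd3g had 809 and 765 counts, or 20.1 and 25.1 CPM, while Cd3e had 2 and 0 counts. The coreceptor genes Cd4 and Cd8a had 12 and 0 counts and 10 and 10 counts, and Bcl11b, a T cell factor, had 2 and 0 counts. Il1rl1, the receptor of interleukin 33, which eosinophils also carry, stood at 403 and 430 CPM, and Il7r, the interleukin 7 receptor, at 48.0 and 69.5 CPM. Rora, a nuclear receptor of innate lymphoid cells, stood at 9.15 and 6.79 CPM, and Klrg1, a lectin-like inhibitory receptor, at 6.05 and 6.63 CPM. Gata3 is the one of the 9 genes that overlaps other counted genes, 2 noncoding genes, so its few counts are uncertain. Its neighbours 1700061F12Rik and Gm13262 had 0 counts in both libraries.

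Of the other 5 genes of the family list, which counts the FOG genes too, 1 was detected, Trps1. Gata4 and Gata5, factors of heart and gut, had 0 counts in both libraries, and Gata6 had 4 and 2 counts. Trps1, a GATA-type repressor, stood at 16.9 and 16.1 CPM.

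Zfpm1 encodes FOG1, which binds the amino-terminal finger of GATA1 and recruits the NuRD and CtBP corepressors. It had 1906 and 1562 counts, which equal 47.3 and 51.3 CPM, or 49.3 ± 2.82 CPM. Replicate 2 was 1.08-fold higher, with an interval of 1.01 to 1.16. Zfpm2, which encodes FOG2, had 124 and 26 counts, 3.08 and 0.853 CPM, and was not detected by the rule. Zfpm2 was 3.60-fold higher in replicate 1, the library with more RNA of stromal genes, and the part of stromal cells in this was not tested. All 16 genes of the FOG1 partner list other than Zfpm1 were detected, where 47.5% of all genes were. Of the 16, 0 were more than 1.5-fold apart, where 7.24% of all detected genes were, so 0 of 16 does not set the list apart. Chd4, the remodelling ATPase of NuRD, stood at 458 and 466 CPM and Ctbp1 at 213 and 205 CPM. The NuRD subunit genes Mta2, Rbbp4 and Gatad2a lay between 166 and 181 CPM in both libraries. The median log2(CPM + 1) of these 16 partners was 6.63. The neighbours of Zfpm1 were Zfp469 at 7.10 and 5.65 CPM and Trhr2 with 0 counts in both libraries.

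Gfi1b encodes a zinc finger repressor of erythroid cells and megakaryocytes that can bind beside GATA1. It had 6114 and 5262 counts, which equal 152 and 173 CPM, or 162 ± 14.9 CPM. Replicate 2 was 1.14-fold higher, with an interval of 1.10 to 1.18. Gfi1, its relative that serves neutrophils and stem cells, had 140 and 88 counts. Its levels were 3.47 CPM (2.92 to 4.10) and 2.89 CPM (2.32 to 3.56), or 3.18 ± 0.414 CPM. The interval of the Gfi1 ratio, 0.915 to 1.59, included no difference between the libraries. Gfi1 passed the minimum of 1 CPM and not a minimum of 5 CPM. The neighbours of Gfi1 were Evi5 at 59.0 and 58.2 CPM and 4930428O21Rik with 2 counts in each library. The low Gfi1 values stood beside neutrophil genes at all levels: Ngp, a protein of secondary granules, was at 658 and 482 CPM, while Elane, neutrophil elastase of early granules, was at 3.52 and 7.09 CPM.

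The window before the start of Gfi1b (GRCm38.p6, chr2:28621983-28622232, minus strand) is shown because it held a GATA match, unlike the windows of its relative Gfi1. Capitals mark the letters TGATAA.
Gfi1b: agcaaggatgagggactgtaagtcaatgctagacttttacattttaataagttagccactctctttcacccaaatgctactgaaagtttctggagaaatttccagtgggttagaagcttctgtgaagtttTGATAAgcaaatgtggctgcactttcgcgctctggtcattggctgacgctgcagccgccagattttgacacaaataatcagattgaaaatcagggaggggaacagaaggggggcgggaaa
The match lies 120 to 115 bases before the start. The windows of Gfi1 held 0 GATA matches and 0 GAGGAA. The Gfi1b window was 44.4% G and C, below the 52.4% median of all windows, and those of Gfi1 were 59.2% and 57.6%. The neighbours of Gfi1b were Tsc1, a brake on mTOR signalling, at 62.7 and 61.2 CPM and Gtf3c5 at 22.9 and 20.9 CPM.

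GFI1 and GFI1B repress genes through the demethylase LSD1 and its partner CoREST. All 13 genes of this list other than Gfi1 and Gfi1b were detected, where 47.5% of all genes were. Their median log2(CPM + 1) was 6.04. Also on the FOG1 partner list are 2 of the 13, the deacetylase genes Hdac1 and Hdac2. Kdm1a, which encodes LSD1, stood at 80.4 and 76.7 CPM and Rcor1, which encodes CoREST, at 135 and 137 CPM. Phf21a, a reader in the LSD1 complex, stood at 224 and 216 CPM, and Gse1, another LSD1 complex member, at 191 and 204 CPM. Ehmt2, the H3K9 methyltransferase G9a, stood at 142 CPM in both libraries. Rcor2 was the 1 gene of the 13 that was more than 1.5-fold apart, at 3.00 and 1.64 CPM. The share over all detected genes was 7.24%, so 1 of 13 does not set the list apart.

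Tal1, Lmo2 and Ldb1 encode parts of the complex through which GATA factors act: a basic helix-loop-helix factor, a LIM-only bridging protein and the LIM-binding protein that brings distant sites together. Tal1 had 630 and 454 counts, 15.6 and 14.9 CPM, or 15.3 ± 0.515 CPM. Lmo2 had 3129 and 2326 counts, 77.6 and 76.35 CPM, or 77.0 ± 0.906 CPM. Ldb1 had 4751 and 3679 counts, 118 and 121 CPM, or 119 ± 2.04 CPM. The intervals of all 3 ratios between the libraries included 1, from 0.928 to 1.19 for Tal1, 0.963 to 1.07 for Lmo2 and 0.935 to 1.02 for Ldb1. With totals scaled by TMM the Ldb1 ratio lay outside its interval, at a log2 ratio of -0.10, and those of Tal1 and Lmo2 stayed inside theirs. The neighbours of Tal1 were Stil, a centriole gene, at 16.9 and 15.95 CPM, and Pdzk1ip1 at 2.33 and 3.41 CPM. Those of Lmo2 were Lincred1 with 4 and 1 counts and 4931422A03Rik at 1.09 and 1.18 CPM. Those of Ldb1 were Pprc1 at 46.3 and 38.3 CPM and 4930505N22Rik with 1 and 2 counts.

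Of the other 17 genes of the LDB1 complex list, without Tal1, Lmo2 and Ldb1, 13 were detected, where 47.5% of all genes were. The median log2(CPM + 1) of the 17 was 5.85. Lyl1, a close relative of TAL1, stood at 242 CPM in both libraries (242.1 and 241.9). Runx1, a factor that joins GATA complexes, stood at 115 and 139 CPM, and Ssbp3, which steadies LDB1, at 85.8 and 88.8 CPM. Cbfa2t3, the corepressor ETO2, stood at 69.5 and 75.4 CPM, and the E protein gene Tcf3 at 77.7 and 79.7 CPM. Ldb2, Lmo1 and Tal2 were not detected: Ldb2 had 0 and 2 counts, Lmo1 had 12 and 16, and Tal2 had 2 and 4. Lmo3 at 2.73 and 1.54 CPM was the 1 of the 13 detected genes more than 1.5-fold apart. With 7.24% of all detected genes that far apart, 1 of 13 does not set the list apart. Lmo4 stood at 74.8 and 69.1 CPM.

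The windows of Tal1 and Ldb1 are shown because they held GATA matches or GAGGAA. Of the 2 RefSeq windows of Tal1 and the 3 of Ldb1, 1 and 2 are printed (GRCm38.p6, chr4:115056176-115056425, plus strand, for Tal1; chr19:46039622-46039871 and chr19:46037071-46037320, minus strand, for Ldb1). Capitals mark GATA matches and GAGGAA, read on either strand, so TTATCT is AGATAA and TTCCTC is GAGGAA on the other strand.
Tal1 window 1: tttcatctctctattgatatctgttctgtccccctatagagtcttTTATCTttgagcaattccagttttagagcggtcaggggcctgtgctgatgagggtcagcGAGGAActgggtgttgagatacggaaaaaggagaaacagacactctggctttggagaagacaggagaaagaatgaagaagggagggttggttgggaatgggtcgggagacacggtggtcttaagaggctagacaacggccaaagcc
Ldb1 window 2: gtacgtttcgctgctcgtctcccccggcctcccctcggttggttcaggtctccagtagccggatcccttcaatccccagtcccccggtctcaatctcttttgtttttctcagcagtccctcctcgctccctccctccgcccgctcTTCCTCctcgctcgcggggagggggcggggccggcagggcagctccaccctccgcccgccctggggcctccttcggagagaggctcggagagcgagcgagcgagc
Ldb1 window 3: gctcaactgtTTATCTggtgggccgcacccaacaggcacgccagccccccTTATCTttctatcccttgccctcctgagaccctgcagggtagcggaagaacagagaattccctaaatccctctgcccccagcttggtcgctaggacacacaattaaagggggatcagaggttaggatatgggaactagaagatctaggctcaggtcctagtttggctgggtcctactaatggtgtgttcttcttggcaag
The GATA match of Tal1 lies 205 to 200 bases before the start and its GAGGAA 146 to 141 bases before it. Ldb1 window 3 held 2 GATA matches, 240 to 235 and 200 to 195 bases before the start. Ldb1 window 2 held GAGGAA 105 to 100 bases before the start and 0 GATA matches.

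**Figure D3:**
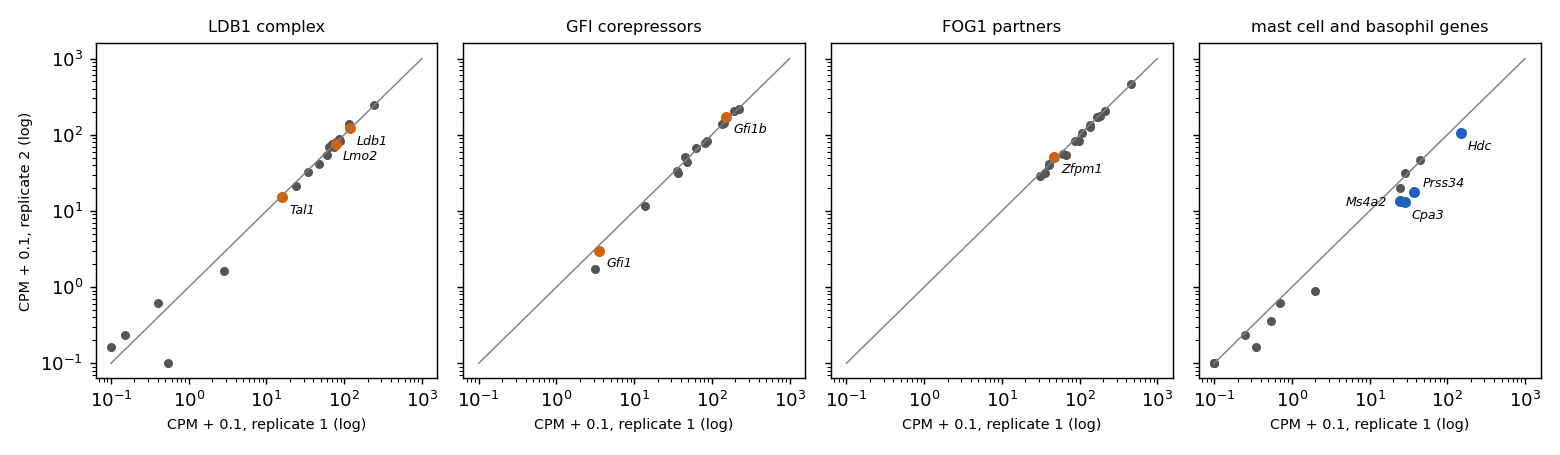
CPM + 0.1 in replicate 1 against replicate 2, both on log axes, for the genes of 3 partner lists and of the mast cell and basophil list, with the diagonal as a line, GATA cofactor genes in orange and 4 mast cell or basophil genes in blue. The cofactor genes lie near the diagonal, and the 4 coloured genes Hdc, Prss34, Cpa3 and Ms4a2 lie below it, higher in replicate 1. Of the other detected genes of that list, Kit also lies below it, and Il4 and Mitf lie above it.

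Genes that GATA1 serves in other lineages differed among themselves in these cells. Of 13 erythroid genes matched, 1 was detected, the spectrin gene Sptb at 7.84 and 6.60 CPM. Klf1, the erythroid partner factor of GATA1, had 8 and 5 counts, or 0.198 and 0.164 CPM. Hba-a1, Hbb-b1, Epb42, Slc4a1, Tspo2 and Car1 had 0 counts in both libraries. Whether globin genes were left out of the counting is not given in the sources used here. Of 14 megakaryocyte genes 10 were detected. Of these 10, 9 were higher in replicate 2 and 1 in replicate 1, a split that was not counted over all detected genes. By more than 1.5-fold 1 of the 10 was higher in replicate 2, Ppbp at 8.73 and 17.2 CPM, where 0.486% of all detected genes were. Nfe2, a bZIP factor, stood at 370.3 and 381 CPM, the integrin genes Itga2b and Itgb3 at 307 and 310.2 CPM and at 268 and 285 CPM, and the chemokine gene Pf4 at 87.6 and 104 CPM. Gp6, a collagen receptor of platelets, had 8 and 10 counts. The share detected was 7.69% for the erythroid and 71.4% for the megakaryocyte genes, beside 47.5% of all genes.

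The eosinophil genes, several of which GATA1 is known to activate, were all detected. Of the 10 genes 7 were higher in replicate 2 and 3 in replicate 1, a split that was not counted over all detected genes. By more than 1.5-fold 0 were higher in replicate 2, where 0.486% of all detected genes were, a share too low for 0 of 10 to set the list apart. Higher in replicate 1 were Epx, Prg3 at 689 and 600 CPM, and Ear2 at 132 and 123 CPM. Ccr3, the eotaxin receptor, stood at 822 and 960 CPM (891 ± 97.7 CPM). Il5ra, the specific chain of the interleukin 5 receptor, stood at 61.5 and 67.2 CPM, and Siglecf, an inhibitory lectin of eosinophils, at 519 and 560 CPM. The summed level of the list was 13349 and 13606 CPM.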

How the data were processed

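The authors deposited 1 table of whole-number read counts per gene for each of the 2 RNA libraries, without normalization. The submitters' processing notes name STAR 2.5, Picard 1.89, featureCounts and the mm9 build, with no role for each. The strand setting is not given in the sources used here. The library kit keeps strand, per the labels' protocols. Of the 9 genes, 7 overlap another gene of the RefSeq table (GRCm38.p6), so antisense reads could not be told apart.

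CPM is the count over the library total. A value of 3 counts equals 0.0744 and 0.0985 CPM. Intervals are 95% exact Poisson (levels) and exact binomial (ratios) and cover counting error only. No test was run, since there was 1 group. Ratios were tested on simulated Poisson counts with known fold changes and no other spread between libraries. The intervals assume the same, so this checked the calculation and not how cultures differ. Transcript lengths were not used here, so levels are not ranked between genes. Genes, 13 lists (170 of 172 symbols matched) and motifs were chosen with earlier results of these data known. The text names all 9 genes, the GATA family, and per list at most 5 detected genes, taken by mean CPM, and at most 3 not detected, and the nearest counted gene on each side of the 9. Other list genes were named after their values were seen. Some genes of the lists are not reported here by name. Promoter windows are the 250 bases before each RefSeq start.

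The 13 peak lists of the series use mm9 coordinates and were not joined to genes of another build. A further 8 value columns match no sample of the series and were not used. Scaling alternatives used edgeR 4.0.16 and DESeq2 1.42.0 in R 4.3.3, and calculations Python 3.11.15, pandas 2.3.3 and scipy 1.17.1.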

Additional observations from a re-analysis of the deposited data

How the results depend on the processing

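The number of detected genes stayed at 8 of 9 in 8 of the 9 alternatives run, which were minimums of 0.5 CPM and of 10 counts, each library alone, and 4 other totals (TMM, DESeq2 size factors, the total without the 20 most abundant genes, and, added after the data were seen, the total without Xist and the stromal list). With a minimum of 5 CPM it was 7, since Gfi1 fell out. Leaving out each replicate in turn gave 8 and 8. The count of genes more than 1.5-fold apart was 0 in all 6 alternatives, and the Gata2 ratio ranged from 1.36-fold with DESeq2 size factors to 1.43-fold. TMM and DESeq2 scaling moved the ratios of Gata1, Gfi1b and Ldb1 beyond their counting intervals towards replicate 2, to log2 ratios of -0.12, -0.25 and -0.10 with TMM. They also turned the sign of Lmo2, and DESeq2 that of Tal1, whose intervals included no difference. The share of all genes past 1.5-fold was 11.4% among genes with 10 or more counts, and 3.45% lay past 2-fold. Levels without the 20 most abundant genes in the total rose by more than 1 SD for 5 genes. The order of levels per kb of length and the alternatives on chromatin were not run. No paired analysis was possible because the 2 RNA libraries form 1 group, with no second group to pair them with. Depth limits Gata3, with 8 counts in all.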
